A study of Mus musculus with 6 samples.

Results

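Type I interferon-stimulated genes were followed in microglia, the resident macrophages of the brain, of 5xFAD mice with and without interleukin-3. The set is a list of 35 gene symbols, and all 35 were found among the 20129 genes of the deposited table and passed the expression filter (at least 1 CPM, the read count scaled to the total of its library, in at least 3 of 6 libraries), as 11900 genes did. The list was drawn up as a gene family, with earlier results of these data known. The 5xFAD group holds 3 libraries (replicates 4, 5 and 6) from mice that carry the 5xFAD transgenes, a model of amyloid deposition in which mutant human genes are driven in neurons by the Thy1 promoter. The Il3-/-5xFAD group holds 3 libraries (replicates 1, 2 and 3) from mice with the same transgenes that also lack Il3, the gene of a haematopoietic cytokine, in every cell. All mice were aged 5 months on a C57BL6/J background, and neither group is free of the transgenes. Each library came from live CD45+ CD11b+ brain cells pooled from 4 mice, 2 male and 2 female, so a difference between libraries of 1 genotype is a difference between pools.

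The libraries held 27970850 to 37605490 reads. Il3 had 29 to 61 reads in the 5xFAD libraries and no read in any Il3-/-5xFAD library, where a count of 0 allowed at most 0.0909 to 0.107 CPM (counting error only). The microglial markers P2ry12, Tmem119, Cx3cr1, Csf1r, Sall1, Fcrls and Gpr34 summed to 24041 to 25636 CPM in 5xFAD and 25843 to 28401 CPM in Il3-/-5xFAD. None of these 7 was called, but all 7 log2 differences (Il3-/-5xFAD minus 5xFAD) were positive, with a median of 0.20. Over all tested genes 49.9% of differences were positive. The interferon-stimulated genes had between 33 and 25300 reads in a library, and 3 of the 210 values lay under 100 reads.

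Type I interferons bind the receptor chains IFNAR1 and IFNAR2, which activate the kinases JAK1 and TYK2. The kinases phosphorylate STAT proteins, STAT2 among them, which join IRF9 in the complex ISGF3, and ISGF3 binds the interferon-stimulated response element in the promoters of its target genes. The targets include sensors of viral nucleic acid, blockers of translation and viral RNA, the ubiquitin-like protein ISG15 with its enzymes, and the factors of the pathway themselves, which lets the response feed on itself. A subset of microglia with high levels of such genes is known from amyloid models and from ageing.

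The sequences that ISGF3 is known to read are shown first, as background to the list. Their part in the levels given below was not tested. RefSeq's promoter windows (GRCm38.p6, 250 bases before to 50 after a start) were at hand for 25 of the 35 members. The core of the response element, GAAA, any bases NN and GAAA in a row, was searched on both strands. It occurred in the windows of 12 of the 25 (48%), against 4% of the 8470 tested genes with a window under the same symbol. It occurred in 18 of 38 (47.4%) of the other interferon-induced genes described further on. Genes with several starts had several windows, and among genes with 1 window the shares were 52.4% of 21 members and 3.41% of 6690 tested genes. Of the 12 members, 9 held the core before the start and Ifih1, Ddx58 and Eif2ak2 only at or after it. The stretches below run from 15 bases before the first match to 15 after the last, in the direction of the gene, with the matched bases in capitals. They belong to a transcription factor of the response and to 5 of its effectors: Stat2 at chr10:128270261-128270300 on the plus strand, Oas3 at chr5:120777710-120777749 on the minus strand, Ifit1 at chr19:34640770-34640828 and Ifit3 at chr19:34583358-34583431 on the plus strand, and Isg15 at chr4:156200860-156200911 and Bst2 at chr8:71537572-71537617 on the minus strand.
Stat2: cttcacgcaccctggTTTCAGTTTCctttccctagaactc
Oas3: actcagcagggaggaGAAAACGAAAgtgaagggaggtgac
Ifit1: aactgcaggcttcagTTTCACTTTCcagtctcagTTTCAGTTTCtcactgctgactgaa
Ifit3: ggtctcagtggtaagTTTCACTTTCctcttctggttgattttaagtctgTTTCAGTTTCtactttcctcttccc
Isg15: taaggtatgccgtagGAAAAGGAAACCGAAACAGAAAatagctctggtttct
Bst2: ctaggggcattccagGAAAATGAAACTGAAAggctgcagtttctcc

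The Ifit1 and Ifit3 stretches hold 2 separate copies each, that of Bst2 holds 2 overlapping copies and that of Isg15 holds 3. The first matched base lay 222 bases before the start in Stat2, 156 in Ifit3, 130 in Bst2, 104 in Ifit1, 78 in Isg15 and 75 in Oas3. A match describes these letters and shows no binding. The second motif searched was the symmetric TTCNNNGAA, the core of the gamma-activated site, and it occurred in 5 of 25 members (20%) and in 8.52% of the 8470 tested genes.

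No interferon-stimulated gene passed the test between the genotypes. Of the 35, limma (adjusted p under 0.05 over all 11900 tested genes) called none, where 0.882% of all tested genes were called, 0.252% higher and 0.63% lower in Il3-/-5xFAD. An unadjusted p under 0.05 was reached by 16.5% of all tested genes and by no member, and the lowest was 0.0759 for Ifi44, a GTP-binding protein of unclear role (adjusted p = 0.363). By edgeR's quasi-likelihood test and by DESeq2, which called 0.504% and 5.09% of genes, none of the 35 was called and none reached an unadjusted p under 0.05 (16.3% and 16.8% of genes). The libraries of the 2 genotypes overlapped in all 35 members, while 21.2% of tested genes had groups that did not overlap, 9.65% higher and 11.5% lower in Il3-/-5xFAD. In such bulk libraries fewer cells of a type and less RNA per cell cannot be told apart.

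The differences lay on both sides of 0. On the log2(CPM + 1) scale, 20 of the 35 differences (Il3-/-5xFAD minus 5xFAD) were positive and 15 negative, with a median of 0.02, beside a median of -0.00059 and 49.9% positive over all tested genes. They ran from -0.70 ± 0.36 (SE, n = 3 against 3) for Ifi44 to 0.27 ± 0.18 for Eif2ak2, the double-stranded RNA kinase that halts translation. A test that does not pass does not show equal levels, so the intervals are given. The 95% confidence interval of the difference lay within 2-fold in either direction for 34 of 35 members and within 1.5-fold for 18, against 89.4% and 64.3% of all tested genes. The exception to the first count was Ifi44, with an interval from -1.48 to 0.09.

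**Figure D1:**
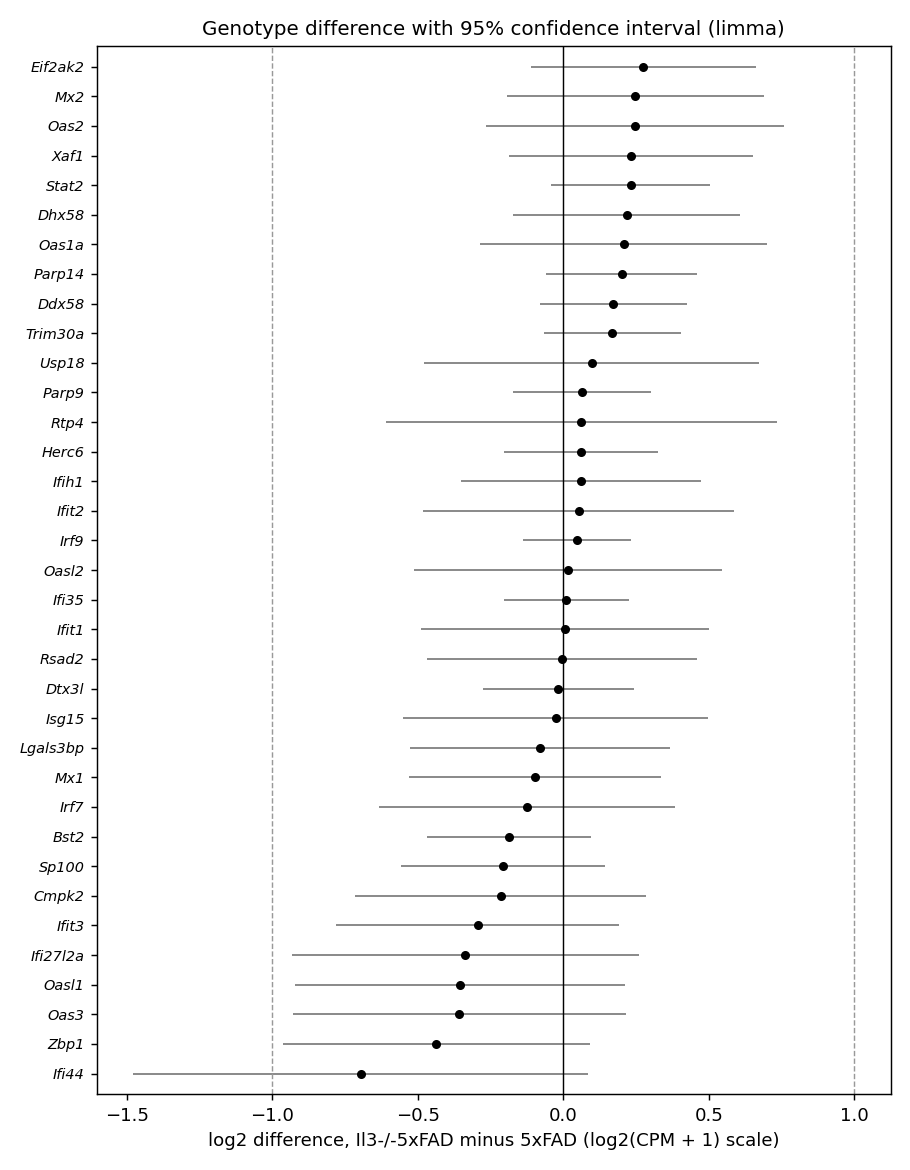
Difference of each of the 35 genes between the genotypes (log2(CPM + 1), Il3-/-5xFAD minus 5xFAD); points are limma estimates, bars their 95% confidence intervals (n = 3 against 3) and dashed lines a 2-fold difference. Every interval includes 0, and the interval of Ifi44 alone reaches past a dashed line.

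In what follows the values of a gene are CPM in 5xFAD replicates 4, 5 and 6 and then in Il3-/-5xFAD replicates 1, 2 and 3. The transcription factors of the response came in steady and in variable forms. Irf9, the DNA-binding part of ISGF3, was at 94.8, 109 and 95.3 CPM and at 104, 102 and 103 CPM. It was the steadiest member, with an SD within groups of 0.08 on the log2 scale. Stat2, its partner, was at 62.4, 69.7 and 61.6 CPM and at 79.5, 88.9 and 61.8 CPM. Its groups overlapped through Il3-/-5xFAD replicate 3, which lay at the level of 5xFAD, and its difference was 0.23 ± 0.12 (SE; limma adjusted p = 0.389). Irf7, the factor that amplifies interferon production, was at 27.4, 59.6 and 47.7 CPM and at 35.5, 49.4 and 34.1 CPM. The 5xFAD libraries of Irf7 thus spanned 2.18-fold, more than the distance between the group means (44.9 ± 16.3 and 39.7 ± 8.46 CPM, SD, n = 3).

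The sensors of viral nucleic acid did not pass the test either. Ddx58, which encodes RIG-I, a sensor of RNA ends, was at 53.2, 62.4 and 50.02 CPM and at 59.4, 70.8 and 56.8 CPM. Ifih1, which encodes MDA5, a sensor of long double-stranded RNA, was at 38.4, 62.8 and 49.7 CPM and at 55.1, 63.3 and 39.0 CPM. In both genes the highest value of each genotype came from 5xFAD replicate 5 and Il3-/-5xFAD replicate 2. Their differences were 0.17 ± 0.12 and 0.06 ± 0.19 (SE; limma adjusted p = 0.494 and 0.913). Dhx58, which encodes the third RIG-I-like receptor LGP2, ranged from 26.7 to 46.9 CPM over the 6 libraries. Zbp1, a sensor of Z-form nucleic acid that triggers cell death, had group means of 18.1 ± 5.24 and 13.2 ± 4.56 CPM (SD, n = 3).

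**Figure D2:**
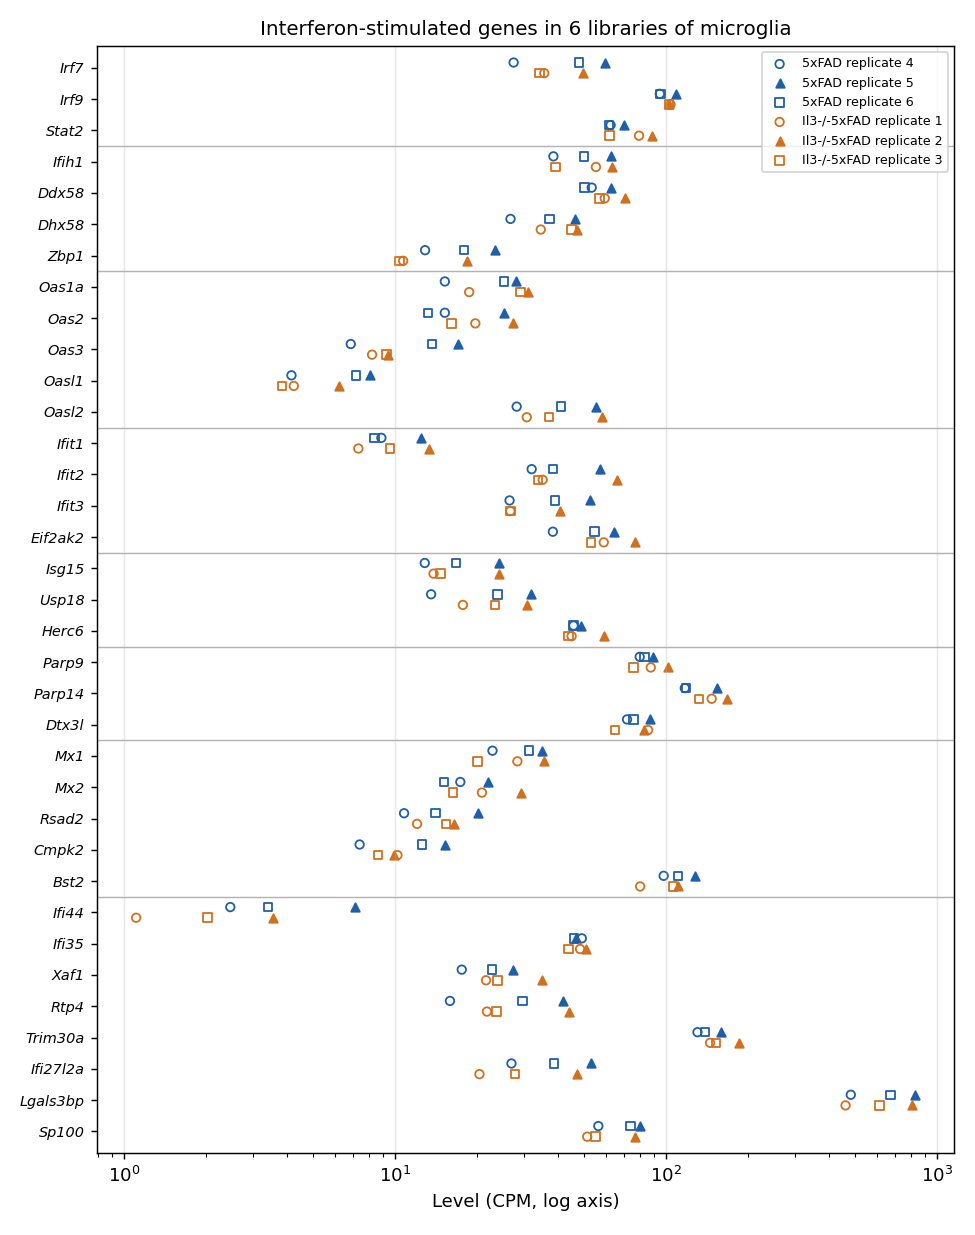
Level of each of the 35 genes in each library (CPM, log axis), with 5xFAD in blue and Il3-/-5xFAD in orange, a marker shape for each library and lines between the role groups (transcription factors, sensors, OAS family, translation and RNA blockers, ISG15 system, ADP-ribosylation, other antiviral effectors, other induced genes). In most rows the filled triangles, 5xFAD replicate 5 and Il3-/-5xFAD replicate 2, lie to the right of the open symbols.

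Enzymes of the OAS family make the second messenger that activates RNase L, though not every protein of the family does so. Oasl2 was at 28.1, 55.1 and 40.9 CPM and at 30.6, 58.0 and 36.9 CPM. Oas1a was at 15.3, 27.9 and 25.2 CPM and at 18.8, 30.9 and 29.1 CPM. The 2 genotypes covered nearly the same range in both, with differences of 0.02 ± 0.24 and 0.21 ± 0.23 (SE). Of the stretches of 50 bases in the longest GENCODE transcript of Oas1a, 57.6% also occur in Oas1g, so the value of Oas1a alone is uncertain. Oas3 was at 6.86, 17.0 and 13.7 CPM and at 8.23, 9.41 and 9.31 CPM. Its spread was wide in 5xFAD (2.48-fold from lowest to highest library) and narrow in Il3-/-5xFAD (1.14-fold). Oas2 ranged from 13.2 to 27.3 CPM and Oasl1 from 3.82 to 8.07 CPM over the libraries.

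Genes that block translation and bind viral RNA had their peaks in the same pair of libraries. Ifit2 was at 31.9, 56.8 and 38.3 CPM and at 35.1, 65.7 and 33.7 CPM. Eif2ak2 was at 38.2, 64.1 and 54.5 CPM and at 58.9, 76.5 and 52.9 CPM. In Ifit2 the remaining 4 libraries lay between 31.9 and 38.3 CPM, whatever their genotype. Ifit1, whose product holds RNA that lacks cap methylation, ranged from 7.32 to 13.4 CPM and differed by 0.0045 ± 0.23 (SE). Ifit3, a partner of IFIT1, had means of 39.3 ± 13.04 and 31.3 ± 8.05 CPM (SD, n = 3). It shares 51.2% of its stretches of 50 bases with Ifit3b, which the table lists under an older name, and its value alone is uncertain.

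The ISG15 system couples a ubiquitin-like tag to proteins. Isg15, the tag, was at 12.9, 24.2 and 16.8 CPM and at 13.9, 24.1 and 14.7 CPM, so that its values in the 2 genotypes nearly coincided. Usp18, the protease that removes the tag and also damps signalling at the receptor, was at 13.6, 31.7 and 23.9 CPM and at 17.8, 30.8 and 23.4 CPM. Herc6, the ligase that attaches the tag in mice, was at 45.5, 48.7 and 45.6 CPM and at 44.8, 58.9 and 43.6 CPM. It varied little in 5xFAD (1.07-fold) and stood out in Il3-/-5xFAD replicate 2. The differences of Isg15, Usp18 and Herc6 were -0.03 ± 0.24, 0.10 ± 0.26 and 0.06 ± 0.12 (SE; limma adjusted p = 0.973, 0.895 and 0.853). In Herc6, 23.8% of the stretches of 50 bases also occur in the gene model Gm45193.

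The 3 genes of ADP-ribosylation lie side by side on chromosome 16 and were among the steady members. Parp14, a transferase that modifies single residues, was at 117, 154 and 119 CPM and at 147, 168 and 132 CPM. Parp9, which works in a complex with the ligase DTX3L, was at 79.9, 89.4 and 83.4 CPM and at 87.8, 102 and 75.9 CPM. For Parp14 and Parp9 the differences were 0.20 ± 0.12 and 0.06 ± 0.11 (SE). Dtx3l ranged from 64.7 to 87.4 CPM, and its highest Il3-/-5xFAD library was replicate 1 (85.8 CPM) and not replicate 2 (82.7 CPM).

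Among the other antiviral effectors, Bst2, which encodes tetherin and holds budding virus at the cell surface, was at 98.0, 128 and 110.8 CPM and at 80.2, 110.3 and 106 CPM. Mx1 was at 22.9, 34.9 and 31.2 CPM and at 28.3, 35.4 and 20.2 CPM. Mx1 encodes a dynamin-like GTPase whose gene is known to be defective in C57BL/6 mice, so its transcript serves here as a readout only. Both genes had differences below 0, -0.19 ± 0.13 and -0.10 ± 0.20 (SE; limma adjusted p = 0.513 and 0.859). Mx2, its neighbour, ranged from 15.2 to 29.3 CPM. Rsad2, which encodes viperin, and Cmpk2, a nucleotide kinase gene beside it on chromosome 12, ranged from 10.8 to 20.3 and from 7.40 to 15.2 CPM. Rsad2 differed by -0.0045 ± 0.21 (SE) and Cmpk2 by -0.22 ± 0.23.

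The remaining induced genes held both the most and the least abundant member. Lgals3bp, a secreted glycoprotein that binds galectins, was at 480.5, 832 and 673 CPM and at 459, 807 and 613 CPM. Trim30a, a ubiquitin ligase gene, was at 131, 159.8 and 139 CPM and at 145, 186 and 153 CPM. Rtp4, a transmembrane protein gene, was at 15.9, 41.8 and 29.6 CPM and at 21.8, 43.7 and 23.7 CPM. All 3 peaked in the same library of each genotype, and Rtp4 had the widest spread of all members within groups (SD 0.61 on the log2 scale). Their differences were -0.08 ± 0.20, 0.17 ± 0.11 and 0.06 ± 0.31 (SE; limma adjusted p = 0.888, 0.469 and 0.947).

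Ifi27l2a, a small mitochondrial protein gene, ranged from 20.5 to 53.0 CPM, Sp100, a nuclear body component, from 51.2 to 80.4 CPM, and Ifi44 from 1.11 to 7.11 CPM. The ratio of highest to lowest library within a genotype was larger in Ifi44 (3.20 in Il3-/-5xFAD) than in any other member, at the lowest level of all. Ifi35, which binds the regulator NMI, was at 48.9, 46.6 and 45.8 CPM and at 48.2, 50.5 and 43.7 CPM. It was nearly as steady as Irf9 and was the sole member whose highest 5xFAD library was not replicate 5. Per kilobase of the longest GENCODE transcript, mean levels ran from 0.807 CPM for Ifi44 to 276 CPM for Lgals3bp, with Bst2 (133 CPM) and Ifi27l2a (76.9 CPM) next below it.

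Chromosome 11, which carries Il3, also carries Xaf1, Dhx58, Ifi35 and Lgals3bp. Xaf1, a gene of a protein that counters an inhibitor of apoptosis, lies nearest to Il3 among them in gene order, with 323 coding genes between, and 10 coding genes from Nlrp1a, an inflammasome gene. It was at 17.6, 27.2 and 22.8 CPM and at 21.7, 34.9 and 23.9 CPM, with a difference of 0.23 ± 0.19 (SE; limma adjusted p = 0.595). The other 3 genes had differences of 0.22 (Dhx58), 0.01 (Ifi35) and -0.08 (Lgals3bp), and none of the 4 passed. Only the members were placed in this way. The distance from Il3 of interferon-induced genes outside the members, given further on, was not examined.

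The members varied together from pool to pool within each genotype. In 34 of 35 members 5xFAD replicate 5 was the highest 5xFAD library, and in 32 of 35 Il3-/-5xFAD replicate 2 was the highest Il3-/-5xFAD library. Over all tested genes these shares were 33.0% and 22.4%. Both held in 31 members (88.6%), against 8.95% of tested genes; the exceptions were Irf9, Dtx3l, Cmpk2 and Ifi35. In 26 members these 2 libraries, 1 of each genotype, took the 2 top places of all 6 (74.3%, against 4.19% of tested genes). At the other end, 5xFAD replicate 4 was the lowest 5xFAD library in 29 of 35 members (37.0% of tested genes), while Il3-/-5xFAD replicates 1 and 3 were each lowest in 17. The pattern was noticed in these values and is given as a description, with no test. Both replicates were highest of their groups in 34 members after median-ratio rescaling and in 32 after quantile normalization, against 31 as deposited.

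The high library of each genotype lay about as far above its group mean, while the low side differed. The median deviation from the mean of the own group, on the log2(CPM + 1) scale, was -0.36, 0.32 and 0.01 in 5xFAD replicates 4, 5 and 6 and -0.14, 0.33 and -0.13 in Il3-/-5xFAD replicates 1, 2 and 3. Over all tested genes these medians lay between -0.02 and 0.03. The median member was 1.68-fold higher in 5xFAD replicate 5 than in replicate 4 and 1.24-fold higher than in replicate 6, and 1.38-fold and 1.40-fold higher in Il3-/-5xFAD replicate 2 than in replicates 1 and 3.

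**Figure D3:**
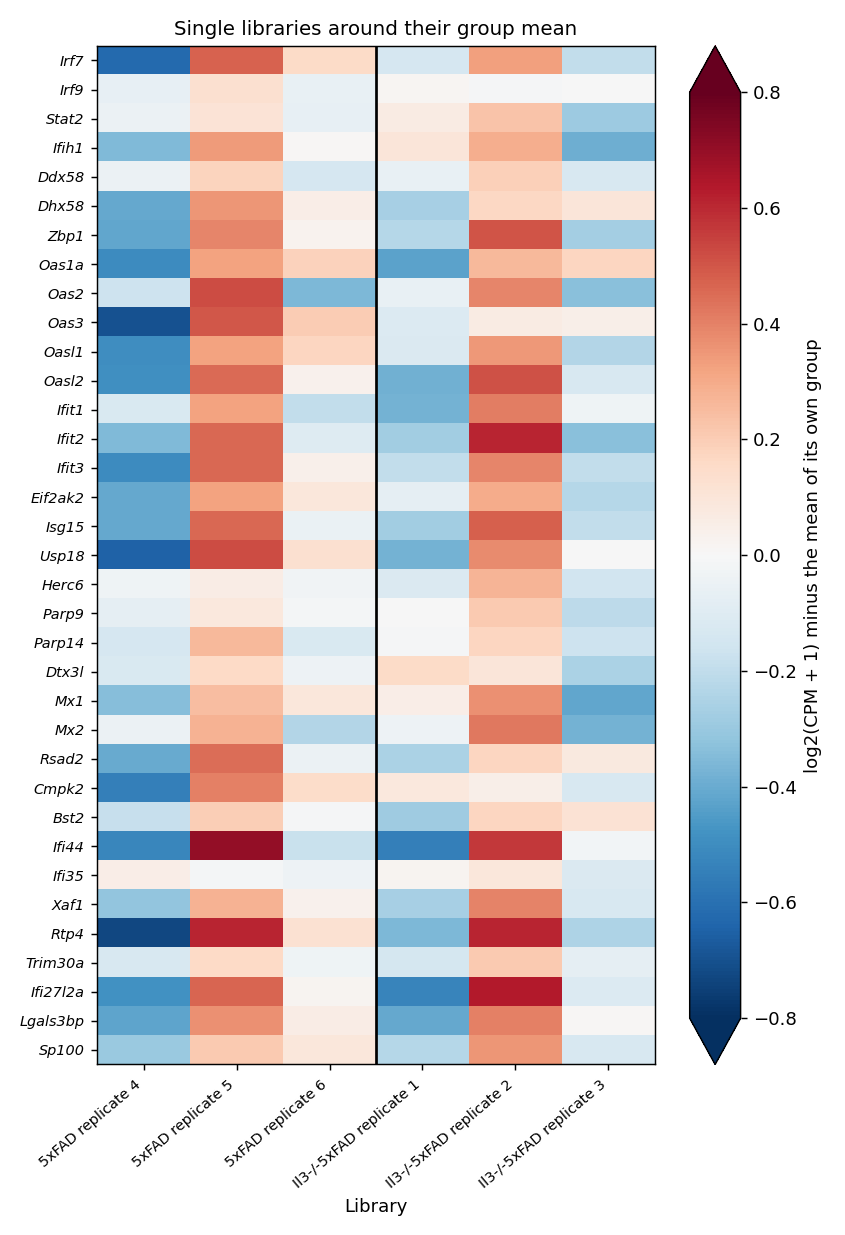
Deviation of each library from the mean of its own genotype, on the log2(CPM + 1) scale (colour, red above and blue below the mean), for the 35 genes in role order. The columns of 5xFAD replicate 5 and Il3-/-5xFAD replicate 2 are red in nearly every row, with medians of 0.32 and 0.33, and that of 5xFAD replicate 4 is mostly blue, with a median of -0.36.

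The spread between libraries of 1 genotype was wider for these genes than for the table as a whole. Their median SD within groups was 0.35 on the log2 scale, beside 0.16 over all tested genes, and 31 of 35 members lay above the latter value. From the lowest to the highest library the median member spanned 1.72-fold in 5xFAD and 1.52-fold in Il3-/-5xFAD, beside 1.21-fold and 1.26-fold for all tested genes. More than 2-fold was spanned in 5xFAD by 6 of 35 members, a larger share than the 8.82% of tested genes. In Il3-/-5xFAD it was spanned by 3 of 35, a share close to the 10.7% of tested genes. By role, the median SD within groups was highest in the ISG15 system (0.42, 3 genes) and the OAS family (0.42, 5 genes). It was lowest in the ADP-ribosylation genes (0.19, 3 genes) and the transcription factors (0.20, 3 genes). Single genes departed from these medians, such as Herc6 of the ISG15 system (0.17) and the factor gene Irf7 (0.45). The SDs in the 2 genotypes, which share no library, had a Pearson's r of 0.53 and a Spearman's rho of 0.49 across the 35 genes. Over all tested genes the same values were 0.51 and 0.39. Genes are not independent replicates, and both SDs of a gene share its level and so its counting error.

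**Figure D4:**
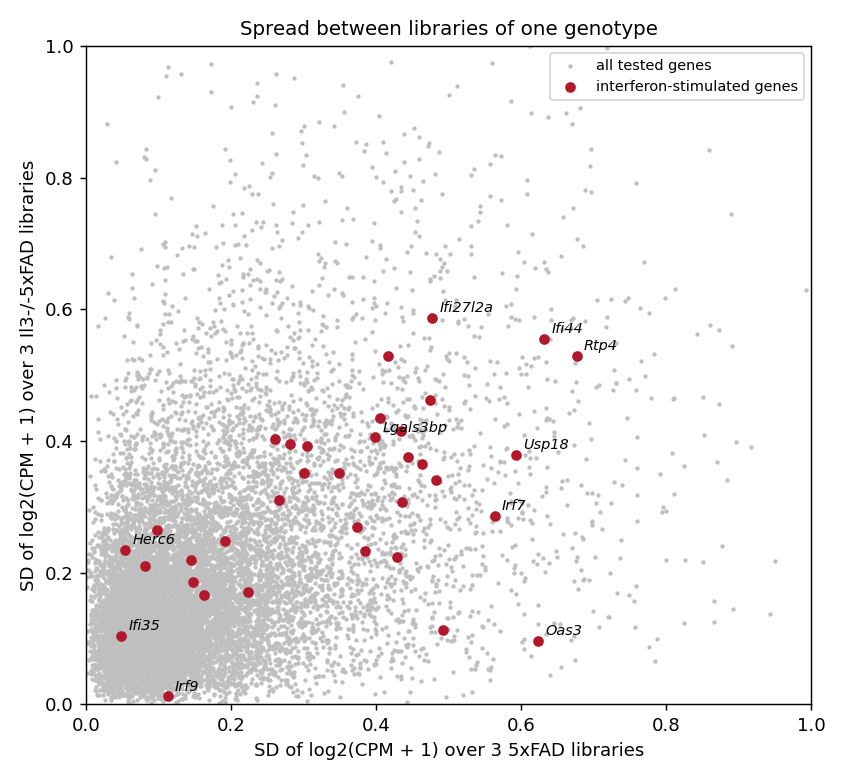
SD of log2(CPM + 1) over the 3 5xFAD libraries (horizontal) and over the 3 Il3-/-5xFAD libraries (vertical) for the interferon-stimulated genes (red) and all tested genes (grey; 66 genes lie beyond the axes). Rtp4, Ifi44 and Ifi27l2a lie far from the origin in both directions, Oas3 in 5xFAD alone, and Ifi35 and Irf9 close to it.

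For every member the range of log2 levels within at least 1 genotype was larger than the difference between the genotypes (35 of 35, against 88.2% of tested genes), and for 31 the range was larger in both genotypes (61.4% of tested genes). The direction of the summary therefore moved with single libraries. Without 5xFAD replicate 5, 26 of 35 differences were positive (median 0.17) and Ddx58, Irf9, Oas2, Parp14 and Trim30a were higher in Il3-/-5xFAD with no overlap (5 of 35, 14.3%; 14.2% of tested genes). Without Il3-/-5xFAD replicate 2, 11 were positive (median -0.09) and Herc6, Ifi44, Sp100 and Zbp1 were lower with no overlap (4 of 35; 14.4% of tested genes). Without 5xFAD replicate 4, 13 were positive (median -0.13) and Bst2, Cmpk2, Oas3 and Oasl1 were lower with no overlap (4 of 35; 18.9% of tested genes). Without Il3-/-5xFAD replicate 1 or 3, a single gene was higher with no overlap, Oas1a or Stat2 (12% and 19.3% of tested genes), and without 5xFAD replicate 6 there was none. No member was called by limma in any of these fits, and the lowest adjusted p was 0.0521, for Stat2 without Il3-/-5xFAD replicate 3. The fit without that library called 5.08% of all tested genes, against 0.882% in the main fit.

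The ligands were barely measured. Of 17 type I interferon genes in the list, Ifnb1 and Ifna2 had rows. Ifnb1, the interferon beta gene, had 50, 15 and 26 reads in 5xFAD and 18, 21 and 31 reads in Il3-/-5xFAD, which is 1.79, 0.513 and 0.691 CPM and 0.604, 0.746 and 0.940 CPM. Its highest library was 5xFAD replicate 4, the one in which most members were at their lowest of the genotype, and its lowest was 5xFAD replicate 5. Ifna2 had 5 reads in 5xFAD replicate 5 and none elsewhere. Both genes were below the filter and were not tested.

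The genes that carry the signal did not pass either. Of the receptor chains and kinases Ifnar1, Ifnar2, Jak1 and Tyk2, none of 4 was called (median log2 difference 0.03). The mean level of Jak1 was 354 ± 14.3 CPM with Il3 and 364 ± 19.2 CPM without it (SD, n = 3). Ifnar2, a chain of the receptor, was at 197, 191 and 193 CPM and at 179, 169.7 and 203 CPM, and its groups overlapped. Its highest libraries were 5xFAD replicate 4 and Il3-/-5xFAD replicate 3, other ones than in most members. Of 15 genes that lead to interferon production (cytosolic sensors, endosomal Toll-like receptors, adaptors and kinases) none was called, 12 differences were positive, and the median was 0.08. Unc93b1, which escorts Toll-like receptors to endosomes, and the factor gene Irf5 were the most abundant, with differences of 0.01 ± 0.09 and 0.08 ± 0.08 (SE). Tlr7, the receptor for single-stranded RNA, was singled out after its values were seen: it was at 322, 321 and 316 CPM and at 406, 372 and 375 CPM. Its groups did not overlap, and its difference of 0.27 ± 0.07 (SE) did not pass by limma (adjusted p = 0.0995) but passed by DESeq2 (adjusted p = 0.0133).

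Of 5 inhibitors of the response none was called (median 0.05). Socs3, a feedback inhibitor of JAK kinases, was at 798, 609 and 658 CPM and at 929, 1032 and 700.2 CPM (0.36 ± 0.14, SE, limma adjusted p = 0.228). Socs3 passed in the fit without Il3-/-5xFAD replicate 3 (0.52, limma adjusted p = 0.0396). That fit called 5.08% of all tested genes, against 0.882% in the main fit. Ptpn6, the phosphatase SHP-1, was at 519 ± 8.99 and 493 ± 8.44 CPM (SD, n = 3). Of 6 genes of type II interferon signalling none was called (median -0.33), and the receptor genes Ifngr1 and Ifngr2, the most abundant, differed by 0.11 ± 0.10 and -0.05 ± 0.09 (SE).

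A further list of 46 interferon-induced genes outside the 35 members had 45 rows, all tested. Of these none rose, 1 fell and 44 did not pass, 16 differences were positive and 29 negative, and the median was -0.10. Over all tested genes 0.252% were called higher and 0.63% lower, 49.9% of differences were positive and the median was -0.00059. The gene that fell was Ifi47, an interferon-inducible GTPase gene, at 15.7, 11.04 and 15.4 CPM and at 6.28, 5.29 and 3.40 CPM. Every Il3-/-5xFAD library of Ifi47 lay below every 5xFAD library (-1.35 ± 0.23, SE; limma adjusted p = 0.0241), and the call was lost without 5xFAD replicate 6 (adjusted p = 0.185), with no filter (0.205) and without the variance trend (0.110). The difference itself lay between -1.50 and -1.14 when single libraries were left out, with an adjusted p of 0.0149 at the lowest, and the gene was also called by edgeR (adjusted p = 0.0389) and DESeq2 (adjusted p = 8.3e-06). Besides Ifi47, another 7 of the 45 were lower with no overlap (8 in all, 17.8%; 11.5% of tested genes) and none was higher. The pattern of single libraries was less marked in this list: 5xFAD replicate 5 and Il3-/-5xFAD replicate 2 were both highest of their genotype in 19 of 45 genes (42.2%, against 88.6% of the members and 8.95% of tested genes), a difference between lists that was not tested.

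Markers of blood cells also moved between the libraries, and neutrophils and monocytes carry CD45 and CD11b, as the sorted cells do. The 10 neutrophil markers summed to 1167, 3097 and 2137 CPM in 5xFAD replicates 4, 5 and 6 and to 735, 204 and 786 CPM in replicates 1, 2 and 3 of Il3-/-5xFAD. The 9 monocyte markers summed to 206, 368 and 301 CPM and to 196, 100.03 and 157 CPM. Both sums were highest of their group in 5xFAD replicate 5, where the interferon-stimulated genes were highest, and lowest in Il3-/-5xFAD replicate 2, where those genes were highest too. Of the tested markers, 5 of 9 neutrophil genes and 3 of 8 monocyte genes were called lower in Il3-/-5xFAD, against 0.63% of all tested genes. Most T cells lack CD11b, while NK cells can carry it, and how many of either passed the sort was not measured. The 8 T and NK cell markers summed to 83.4 to 169 CPM in 5xFAD and to 38.1 to 54.3 CPM in Il3-/-5xFAD, with 3 of 8 called lower.

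The 6 markers of plasmacytoid dendritic cells, strong producers of type I interferon, summed to 17.3, 35.1 and 29.4 CPM and to 12.3, 23.8 and 20.3 CPM. Within each genotype their sum was highest in 5xFAD replicate 5 and Il3-/-5xFAD replicate 2, as in most members, but 5xFAD replicate 6 lay above Il3-/-5xFAD replicate 2. These cells have little or no CD11b, and how many of them passed the sort was not measured. Pacsin1 and Cox6a2 made up most of the sum, while Ccr9, Klk1, Ly6d and Cd300c were below the filter, with Klk1 at 0 in 4 of 6 libraries. Neither of the 2 tested markers was called. The 4 B cell markers summed to 10.4 to 21.2 CPM, the 4 markers of border-associated macrophages to 71.0 to 104 CPM, and those of astrocytes, neurons, oligodendrocytes and endothelium (4 each) to 7.35 to 44.4, 1.99 to 4.22, 60.9 to 98.6 and 50.3 to 71.2 CPM over the 6 libraries. The part of these cells in the levels of the interferon-stimulated genes was not tested.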

How the data were processed

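Per the labels, RNA of sorted brain cells was made into libraries with a polyA-selecting directional kit. The authors deposited 1 table of CPM (read counts scaled to the library total) by gene symbol. STAR, HTSeq, edgeR and mm9 are named per the submitters' processing notes; the versions, the annotation and the counting mode were not given in the sources used here. In every library 100% of the values were whole multiples of 1 read (tolerance 0.01 reads), so reads were recovered.

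The main test was limma 3.58.1 with a variance trend (R 4.3.3, two-sided) on log2(CPM + 1), with Benjamini-Hochberg adjustment over 11900 genes. This scale understates changes of low genes. On recovered reads, edgeR 4.0.16 called 60 genes and DESeq2 1.42.0 called 605; limma called 105. The limma step was tested as code on simulated reads with known answers. Genes varied independently there, unlike the members, so it does not show how the test performs on them. The fit was repeated without a filter, with genes averaging 5 CPM or more, at pseudocounts of 0.25 and 5, after median-ratio or quantile scaling, with no trend, with robust estimation and without each library in turn.

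The members, lists and tests were chosen with earlier results of these data known. Values in every library were to be given for called and non-overlapping members, the 2 most abundant of each role and the 3 with the largest ratio of highest to lowest library among members with a mean of at least 5 CPM, which leaves out Ifi44; Irf7, Isg15, Ifi35 and Xaf1 were added after their values were seen. In other lists called genes, or the 2 most abundant, were named. Tlr7 was named outside this rule. Some genes of these lists are not reported here. Promoters and chromosomes are RefSeq's (GRCm38.p6), another build than that of the table. Replicates of a group were not alike within sampling noise (chi-square per degree of freedom at least 22.1).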

Additional observations from a re-analysis of the deposited data

How the results depend on the processing

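No interferon-stimulated gene was called under any of the 16 alternatives. Under the 10 that kept all 6 libraries, the median log2 difference lay between 0.01 and 0.04 and no member's groups separated (Ifi44 was untested with a mean of at least 5 CPM). Signs near 0 changed in Rsad2 (0.00057 with median-ratio rescaling, 0.040 with quantile normalization), Isg15 (0.0099, quantile) and Unc93b1 (-0.013, quantile). Leaving out 1 library moved the median from -0.13 to 0.17 and the number of members with no overlap from 0 to 5. Genes whose sign changed in such fits had these ranges of log2 difference: Irf7 -0.44 to 0.11, Ifih1 -0.12 to 0.26, Oas1a -0.046 to 0.42, Oasl2 -0.24 to 0.24, Ifit1 -0.20 to 0.19, Ifit2 -0.25 to 0.28, Isg15 -0.27 to 0.20, Usp18 -0.23 to 0.36, Herc6 -0.074 to 0.14, Parp9 -0.043 to 0.17, Dtx3l -0.094 to 0.11, Mx1 -0.28 to 0.11, Rsad2 -0.21 to 0.22, Ifi35 -0.036 to 0.066, Rtp4 -0.30 to 0.37, Lgals3bp -0.29 to 0.12, Jak1 -0.0041 to 0.071, Unc93b1 -0.018 to 0.071 and Ifngr2 -0.11 to 0.014; the cause was not tested. The number of genes called over the whole table differed more: 8 with no filter, 10 without trend, 60 by edgeR, 605 by DESeq2, and 15 to 605 without 1 library, against 105. With 3 pools a group, the data do not exclude differences that lie inside the intervals given. No paired analysis was possible because the groups share no replicate number.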

Other observations

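Near-identical genes were added up to see whether the split of reads between them bears on the values. Oas1a plus Oas1g summed to 25.9 ± 7.41 CPM (SD, n = 3) in 5xFAD, and to 31.0 ± 7.76 CPM when Il3 was lacking, and Ifit3 plus Ifit3b to 46.9 ± 15.9 and 37.6 ± 9.72 CPM. Both sums were highest in 5xFAD replicate 5 and Il3-/-5xFAD replicate 2 of their groups, as the single genes were. Members with the core of the response element (GAAA, NN, GAAA) in a promoter window had a median SD within groups of 0.34 on the log2 scale (12 genes), those with a window but without it 0.36 (13 genes), and those with no window at hand 0.38 (10 genes). The highest libraries of both genotypes were replicates 5 and 2 in 12 of 12, 9 of 13 and 10 of 10 of these genes. Whether the 10 genes with no window hold the core is not known, so their count does not bear on it. The differences between these groups were not tested.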
